A study of Mus musculus with 28 samples.

Results

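The late exosome effect was compared with the early one in CTLL2, a line of mouse cytotoxic T cells whose growth depends on interleukin-2. CTLL2 cells were placed in fresh complete medium, either alone (untreated) or with exosomes of B16F0 mouse melanoma cells, small vesicles that these tumour cells release. Exosomes were resuspended in PBS and used at 0.2 mg/ml. Whether untreated cells received PBS is not given in the sources used here. The comparison used the 16 libraries of batch 2, as the sample descriptions number the batches, out of 28 in the series. At each of 0.5, 2, 4 and 8 h there were 2 untreated and 2 exosome-treated libraries. The 8 batch 1 libraries at the same times, 1 per treatment and time, served for comparison, and the 4 untreated libraries at 0 h were not used. All libraries come from 1 cell line, labelled C57BL/6, so replicates are cultures of that line and not animals. The exosome effect is the treated minus untreated difference in log2(normalized count + 1). The quantity examined was the mean effect at 4 and 8 h (late) minus the mean effect at 0.5 and 2 h (early).

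NF-kB is a family of dimeric transcription factors that inhibitor proteins of the IkB family hold in the cytoplasm. When receptors such as those of the TNF family signal, IkB kinases mark the inhibitors for destruction and the dimers enter the nucleus. Several of the genes they switch on encode their own inhibitors and subunits, so the level of these transcripts is widely used as a readout of the pathway in T cells.

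The 16 libraries of the comparison held between 13399840 and 21120943 recovered reads. Several T-cell genes were abundant in every one: the T-cell receptor component Cd3e lay between 2437 and 4047 normalized counts, Cd8b1 between 878 and 1097, and granzyme B (Gzmb) between 33080 and 40530. Other T-cell genes were lower, with Cd8a between 52.4 and 104 and Cd2 between 110 and 192, and Cd5 and Tcf7 were too low to be tested. The B-cell gene Ms4a1 and the macrophage gene Adgre1 were at 0 in 13 and 14 of 16 libraries. Other markers on those lists were present in every library: the macrophage gene Cd68 lay between 266 and 431 normalized counts and the B-cell gene Pax5 between 7.82 and 21.5. The summed macrophage and dendritic cell list ranged from 9449 to 9772 in early untreated and 9229 to 9658 in early treated libraries. Late, it ranged from 8592 to 9801 in untreated and 9065 to 10200 in treated libraries. Of its 14 genes 4 were tested, and most of the sum came from Itgax. Itgax had means of 9005 normalized counts in early untreated, 8814 in early treated, 8622 in late untreated and 9126 in late treated libraries. The actin gene Acta1 of skeletal muscle was above 50 normalized counts in 4 libraries: exosome 0.5 h replicate 3 (327), untreated 2 h replicate 2 (136), exosome 4 h replicate 1 (415) and untreated 8 h replicate 2 (206). In the other libraries it lay between 0.974 and 4.71. The 4 libraries above 50 are called libraries with muscle transcripts below, a label that rests on Acta1 alone. Of other muscle genes, Ckm (469 to 1042) and Mylpf (126 to 354) were present in every library. Myh4, Tnnt3 and Myl1 were at 0 in 10, 9 and 10 of 16 libraries. The shares of genes at 0 were 15.7% in 1 untreated library at 4 h (replicate 1) and 22.0% in 1 treated library at 8 h (replicate 3), against 30.9% to 36.4% in the other libraries. Late minus early results that lose or gain a call without any of these 6 libraries are named as such. For the early and late effects on their own only the number of calls was followed, and effects at single times were not followed.

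Of 14453 genes tested, 3 had a late effect higher than the early one (0.0208% of genes tested, limma with Benjamini-Hochberg adjustment) and 0 had a lower one (0%). All 3 belong to the NF-kB system: Nfkbia, Relb and Nfkb2. In RNA from bulk cells, more transcript per cell and more cells holding the transcript cannot be told apart. At an unadjusted p below 0.05 there were 207 genes above 0 (1.43%) and 149 below 0 (1.03%), out of 6920 above 0 (47.9%) and 7533 below 0 (52.1%) among all genes. edgeR called 3 genes, with 0 lower and 352 genes at an unadjusted p below 0.05, and DESeq2 called 5, the other two being Bcl3 and Ikbke. A moderated F test of any difference between the 4 times, which does not group the times into early and late, also called 3 genes.

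Promoter windows of Nfkbia and Nfkb2 are shown because both carry a match to one form of the kappa B motif, the site that NF-kB dimers bind. The form searched is the Nfkb2 match shown in capitals with any base allowed at the fourth and the fifth position, and the Nfkbia match is on the opposite strand. Windows run from 250 bases before to 50 after the RefSeq start site on GRCm38.p6 and are written 5′ to 3′ on the gene's own strand, with the match in capitals. The Nfkbia window is chr12:55492598-55492897 on the minus strand, and its match begins 29 bases before the start site. The Nfkb2 window is chr19:46304487-46304786 on the plus strand, and its match begins 11 bases before the start site.
Nfkbia: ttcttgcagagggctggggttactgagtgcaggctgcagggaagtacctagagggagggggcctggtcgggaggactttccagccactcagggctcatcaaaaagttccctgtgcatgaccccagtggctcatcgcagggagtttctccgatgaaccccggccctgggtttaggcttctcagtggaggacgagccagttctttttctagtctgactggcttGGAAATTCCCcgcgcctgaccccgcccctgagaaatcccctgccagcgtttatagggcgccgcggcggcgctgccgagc
Nfkb2: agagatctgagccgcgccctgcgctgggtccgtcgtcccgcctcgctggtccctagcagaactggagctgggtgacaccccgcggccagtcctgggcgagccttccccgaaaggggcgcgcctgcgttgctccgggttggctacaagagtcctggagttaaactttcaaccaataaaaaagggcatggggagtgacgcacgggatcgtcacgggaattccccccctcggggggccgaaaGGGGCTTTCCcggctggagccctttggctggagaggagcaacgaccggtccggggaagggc
On both strands, 535 of 32851 promoter windows of this length held the motif (1.63%). Of the 12 genes named below with late minus early effects above 0, 9 had a promoter window and 2 held the motif, Nfkbia and Nfkb2. The form is written from the Nfkb2 match, so its presence in Nfkb2 is no separate result. A gene can have several windows, as Nfkb2 has 3, so this count of genes is not comparable with the share of windows. A match describes these letters and is no evidence of binding.

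Nfkbia (ENSMUSG00000021025.7, chromosome 12 from 55489410 to 55492647 of GRCm38, protein coding) encodes IkB alpha, the inhibitor that is destroyed and then remade as NF-kB is activated. In untreated cells it stood at 337 and 375 normalized counts at 0.5 h, 403 and 407 at 2 h, 431 and 409 at 4 h, and 440.1 and 417.5 at 8 h. With exosomes it stood at 329.5 and 363 at 0.5 h, 588 and 574 at 2 h, 985 and 973 at 4 h, and 876 and 911 at 8 h. Treated and untreated libraries overlapped at 0.5 h and were apart from 2 h on, and all 4 late treated libraries were above the other 12. The exosome effect was 0.24 ± 0.06 early and 1.14 ± 0.06 late (log2, standard error), a difference of 0.90 ± 0.08 (limma adjusted p = 0.00024). In a model that pools the times into 4 means, Nfkbia was not called (limma adjusted p = 0.774).

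Relb (ENSMUSG00000002983.17, chromosome 7 from 19606217 to 19629438, protein coding) encodes the RelB subunit, which works with the product of Nfkb2 in the non-canonical branch of the pathway. Without exosomes its normalized counts were 178 and 213 at 0.5 h, 211 and 225 at 2 h, 208 and 216 at 4 h, and 217 and 221 at 8 h. Exosome-treated cells had 205 and 272 at 0.5 h, 237 and 235 at 2 h, 641 and 595 at 4 h, and 571 and 589 at 8 h. The treated libraries overlapped the untreated ones at 0.5 h, lay just above them at 2 h, and stood well above every other library at 4 and 8 h. The difference between the late effect (1.47 ± 0.09) and the early effect (0.20 ± 0.09) was 1.27 ± 0.12 on the log2 scale (limma adjusted p = 0.000302).

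Nfkb2 (ENSMUSG00000025225.14, chromosome 19 from 46304320 to 46312385, protein coding) encodes the precursor that is cut to release RelB's partner subunit. Untreated cells held 1001 and 1049 normalized counts at 0.5 h, 1101 and 1102 at 2 h, 1027 and 1143 at 4 h, and 1059 and 1156 at 8 h. Treated cells held 1062 and 1111 at 0.5 h, 1203 and 1186 at 2 h, 1813 and 1902 at 4 h, and 1961 and 1841 at 8 h. No library from 4 or 8 h with exosomes fell below 1813, and no other library reached above 1203. The effect went from 0.10 ± 0.05 early to 0.78 ± 0.05 late, a difference of 0.68 ± 0.07 (limma adjusted p = 0.000929). Nfkb2 overlaps Psd, a gene on the opposite strand from 46312087 to 46327156. The sources used here do not say whether reads were counted by strand, so reads of the overlap cannot be told apart. The same holds for Bcl3, Ikbke and Rrad, which overlap predicted genes on the opposite strand.

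**Figure D1:**
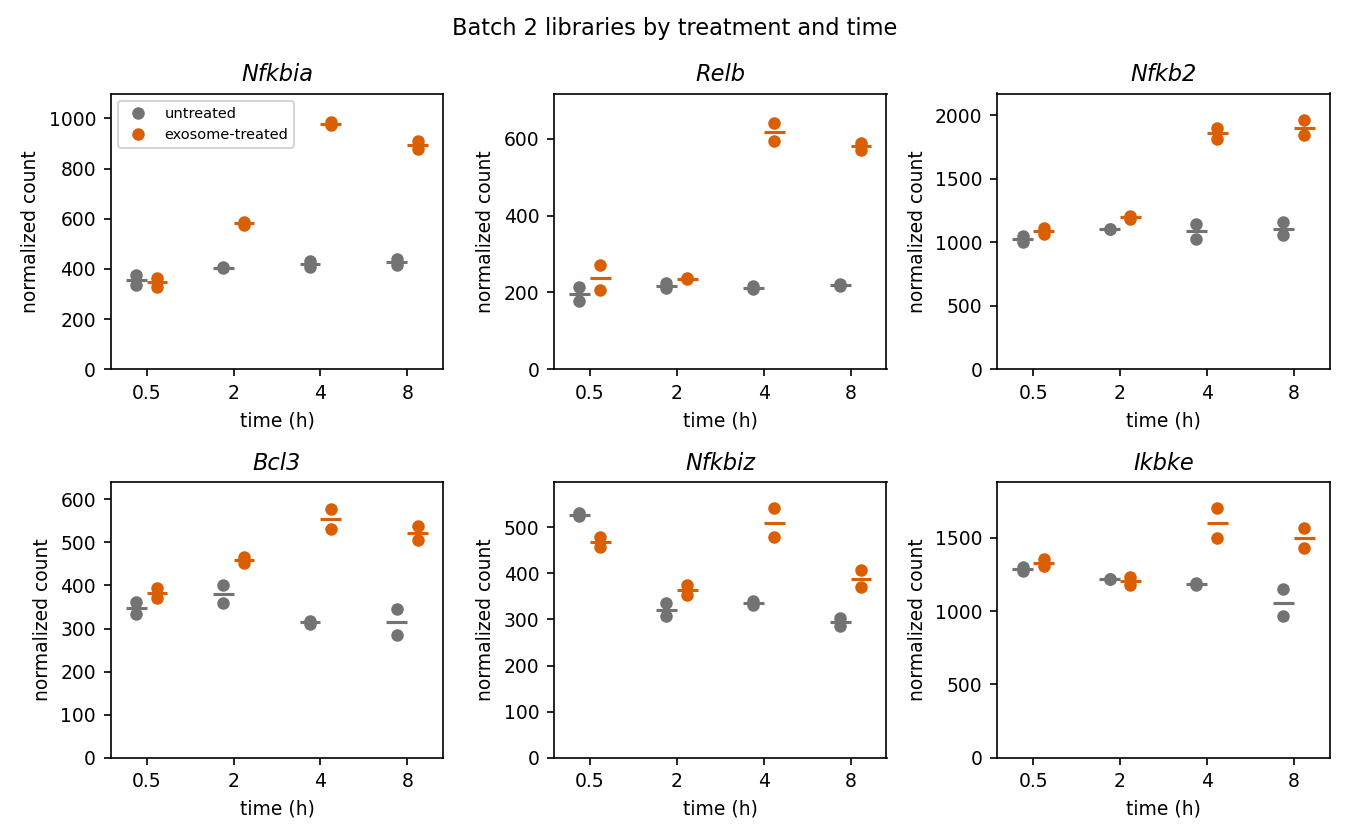
Normalized counts (vertical axes, linear, from 0) of 6 genes against time in h, 1 point per batch 2 library, grey for untreated and orange for exosome-treated cells, with a bar at the mean of each pair. In Nfkbia, Relb and Nfkb2 the 4 treated libraries at 4 and 8 h lie above the other 12, while treated and untreated points lie close together at 0.5 h.

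In these 3 genes the treated arm passed the test of change with time and the untreated arm did not. From early to late, Nfkbia changed by 1.06 ± 0.06 in treated cells (limma adjusted p = 2.5e-07) and by 0.16 ± 0.06 in untreated cells (0.0574). Relb changed by 1.34 ± 0.09 and 0.07 ± 0.09 (limma adjusted p = 6.33e-07 and 0.621), and Nfkb2 by 0.72 ± 0.05 and 0.04 ± 0.05 (1.57e-06 and 0.583). Changes with time alone were common elsewhere: treated cells had 730 genes higher (5.05%) and 1080 lower (7.47%) late than early, and untreated cells 1308 higher (9.05%) and 1504 lower (10.4%). The growth factor response genes Egr1 and Etv5 are examples, falling by 1.45 and 1.47 in treated cells and by 1.43 and 1.52 in untreated cells, with late minus early exosome effects of -0.02 ± 0.23 and 0.06 ± 0.27.

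Taken time by time, the effect on Nfkbia was -0.04 at 0.5 h, 0.52 at 2 h, 1.22 at 4 h and 1.06 at 8 h, and it was called from 2 h on (limma adjusted p = 0.0111 at 2 h). That on Relb was 0.28, 0.12, 1.54 and 1.40, and that on Nfkb2 was 0.08, 0.12, 0.78 and 0.78, both called at 4 and 8 h and at neither earlier time. Between the early times, the Nfkbia effect at 2 h exceeded that at 0.5 h by 0.56 ± 0.11, with an unadjusted limma p of 0.000192 that did not pass over all genes (adjusted p = 0.999). With 2 h alone as the early time, its late minus early effect was 0.62 and not called (limma adjusted p = 0.0796), whereas Relb and Nfkb2 kept their calls. Between the late times, the effects at 8 h differed from those at 4 h by -0.16 ± 0.11 for Nfkbia, -0.14 ± 0.17 for Relb and 0.00 ± 0.10 for Nfkb2. limma called 0 genes for 8 h against 4 h, with 1831 at an unadjusted p below 0.05, and 0 for 2 h against 0.5 h, with 297.

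The next 9 genes are those with a late minus early effect above 0 and the smallest unadjusted p. Predicted genes, RIKEN clones and pseudogenes were left out. These 9 did not pass the threshold in limma. Among them were further regulators of NF-kB. Bcl3, an atypical IkB protein that acts in the nucleus, was at 0.57 ± 0.10 (limma adjusted p = 0.172). Its treated libraries lay at 371 to 467 normalized counts early and 506 to 578 late, above the 4 late untreated ones (285 to 345). Nfkbiz, another nuclear IkB protein gene, was at 0.50 ± 0.09 (limma adjusted p = 0.172). Unlike the 3 called genes it fell with time in untreated cells, from 306.5 to 530.5 normalized counts early to 285 to 340.2 late (a change of -0.39 ± 0.06, limma adjusted p = 0.00116), and treated cells went from 353.5 to 478 early to 370.5 to 541 late. Ikbke, which encodes an IkB kinase-related kinase, was at 0.45 ± 0.09 (limma adjusted p = 0.285), with treated libraries at 1180 to 1355 early and 1427 to 1703 late. Untreated cells changed with time by -0.21 ± 0.07 in Bcl3 and -0.16 ± 0.06 in Ikbke (limma adjusted p = 0.0508 and 0.0719). Treated cells changed by 0.36 ± 0.07 and 0.29 ± 0.06 (limma adjusted p = 0.00524 and 0.00837). Bcl3 and Ikbke were called by DESeq2 (adjusted p = 0.0236 each). In limma Bcl3 was called without untreated 8 h replicate 3 (adjusted p = 0.0176), and Ikbke without untreated 8 h replicate 2 (0.0265) and without the 4 libraries with muscle transcripts (0.0137).

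Zc3h12a encodes an RNase that degrades cytokine transcripts. It stood at 316 to 358 normalized counts in early treated libraries and at 419 to 485 in late ones, and its late minus early effect was 0.48 ± 0.10 (limma adjusted p = 0.378). Traf1, an adaptor of TNF-family receptors, stood at 1491 to 1716 early and 1748 to 2175 late with exosomes, with an effect of 0.29 ± 0.07 (limma adjusted p = 1.00). The small GTPase gene Rrad (0.44 ± 0.09), the lymphoid transcription factor gene Pou2f2 (0.66 ± 0.16), the adhesion docking protein gene Bcar1 (0.72 ± 0.17) and Psd (0.53 ± 0.12), which encodes an exchange factor for an ARF GTPase, completed the 12. Bcar1 fell with time in untreated cells (-0.63 ± 0.12, limma adjusted p = 0.00352). In treated cells it changed by 0.09 ± 0.12 (limma adjusted p = 0.647). Rrad, Pou2f2, Psd, Zc3h12a and Traf1 each had all 4 late treated libraries above the other 12. Over all genes tested 26 did so (0.18%), and in 20 (0.138%) the 4 late treated libraries were below the other 12.

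On the list of NF-kB targets and subunits, 22 of 28 genes were tested. Here 3 were called higher and 0 lower, 11 were above 0 and 0 below 0 at an unadjusted p below 0.05, and 20 in all were above 0. Over all genes tested 0.0208% were called higher, 1.43% were above 0 and 1.03% below 0 at that p, and 47.9% in all were above 0. The median late minus early effect was 0.27, against -0.01 over all genes tested. The median exosome effect of the list was 0.04 early and 0.30 late, against 0.003 and -0.004 over all genes. In 7 members all 4 late treated libraries were above the other 12, as in 0.18% of all genes tested. The list was drawn up with earlier results of these samples known, so its median and counts describe it and are no independent evidence.

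Members did not move alike. Inhibitor genes other than Nfkbia were above 0 without passing: Tnfaip3, a ubiquitin-editing brake on the pathway, at 0.88 ± 0.27, its partner Tnip1 at 0.36 ± 0.09, the inhibitor gene Nfkbib at 0.24 ± 0.10 and Nfkbie at 0.51 ± 0.25 (limma adjusted p = 1.00 each). Tnfaip3 was scarce, at 27.6 to 34.2 normalized counts in early treated libraries and 43.0 to 54.0 in late ones, against 14.6 to 30.2 in untreated ones. The apoptosis inhibitor gene Birc3 (0.29 ± 0.09) and the adhesion molecule gene Icam1 (0.25 ± 0.07) also missed the threshold. The subunit genes Nfkb1 (-0.07 ± 0.06), Rela (0.07 ± 0.11) and Rel (0.13 ± 0.10) were near 0, and so were the target cytokine genes Tnf (0.01 ± 0.16) and Lta (0.05 ± 0.14) and the survival gene Cflar (0.01 ± 0.09). Tnf went from 310 ± 184 normalized counts early to 163 ± 53.2 late without exosomes (SD, n = 4) and from 357 ± 184 to 191 ± 20.3 with them, and its change from early to late was -0.75 in each arm (limma adjusted p = 0.000847 untreated and 0.00111 treated).

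**Figure D2:**
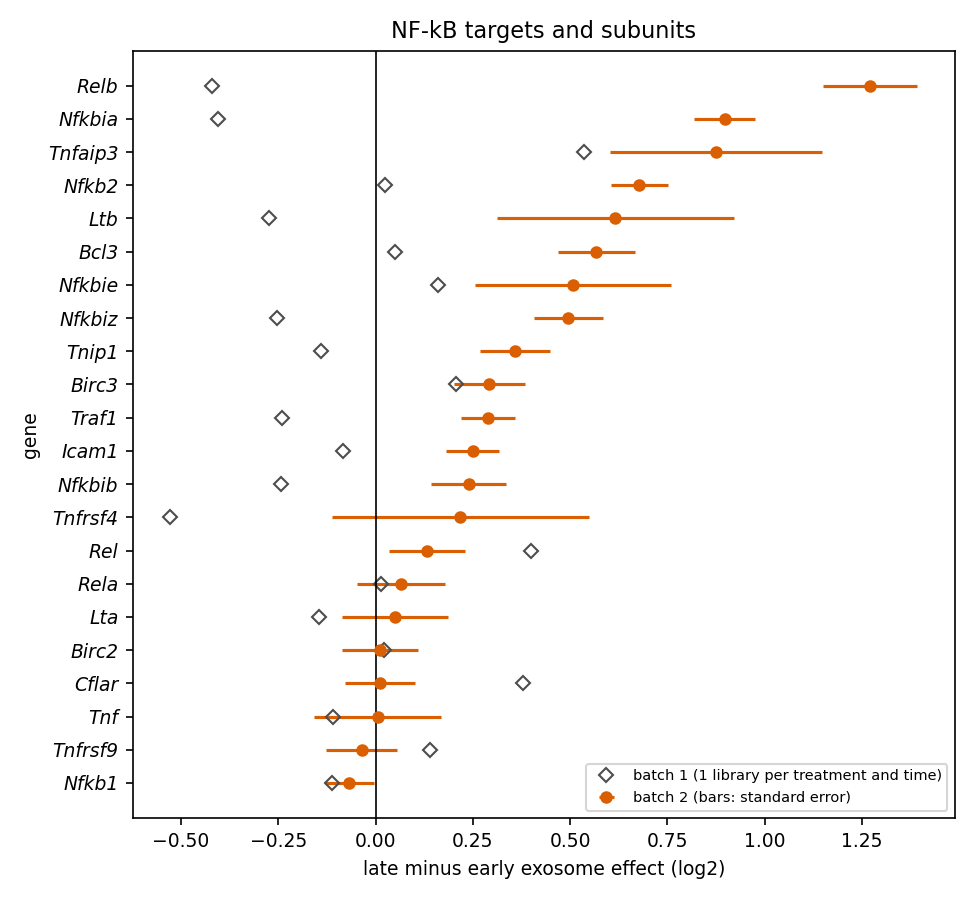
Late minus early exosome effect (horizontal axis, log2) of the 22 tested NF-kB targets and subunits, with batch 2 as filled points with standard errors and batch 1, 1 library per treatment and time, as open diamonds without error. Relb, Nfkbia and Nfkb2 lie at 1.27, 0.90 and 0.68 in batch 2 and at -0.42, -0.40 and 0.02 in batch 1.

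Taken on their own, the early and late effects were called in more genes: 60 genes were called higher early (0.415%) and 0 lower, and 76 higher (0.526%) and 2 lower (0.0138%) late. Early and late effects shared 47 genes, 78.3% of the early and 60.3% of the late calls. Of the 31 genes called late and not early, 29 were higher and 2 lower, and 3 of them passed the test of the difference itself. Of the NF-kB list 0 members were called early and 9 late, Nfkbia, Relb, Nfkb2, Bcl3, Nfkbiz, Tnfaip3, Traf1, Tnip1 and Icam1. Both late effects below 0 were small: Jchain, which encodes the joining chain of antibodies, was at 957 to 1126 normalized counts in late treated libraries and 1172 to 1352 in late untreated ones (-0.32 ± 0.05, limma adjusted p = 0.013). Tph1, a serotonin synthesis enzyme gene, was at 164 to 243 and 205 to 319 (-0.33 ± 0.07, limma adjusted p = 0.0387), and fell with time in both arms. Their late minus early effects, -0.29 ± 0.08 and -0.36 ± 0.09, were not called. The late count fell to 47 without untreated 4 h replicate 3, to 43 without exosome 8 h replicate 2 and to 46 without exosome 8 h replicate 3.

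**Figure D3:**
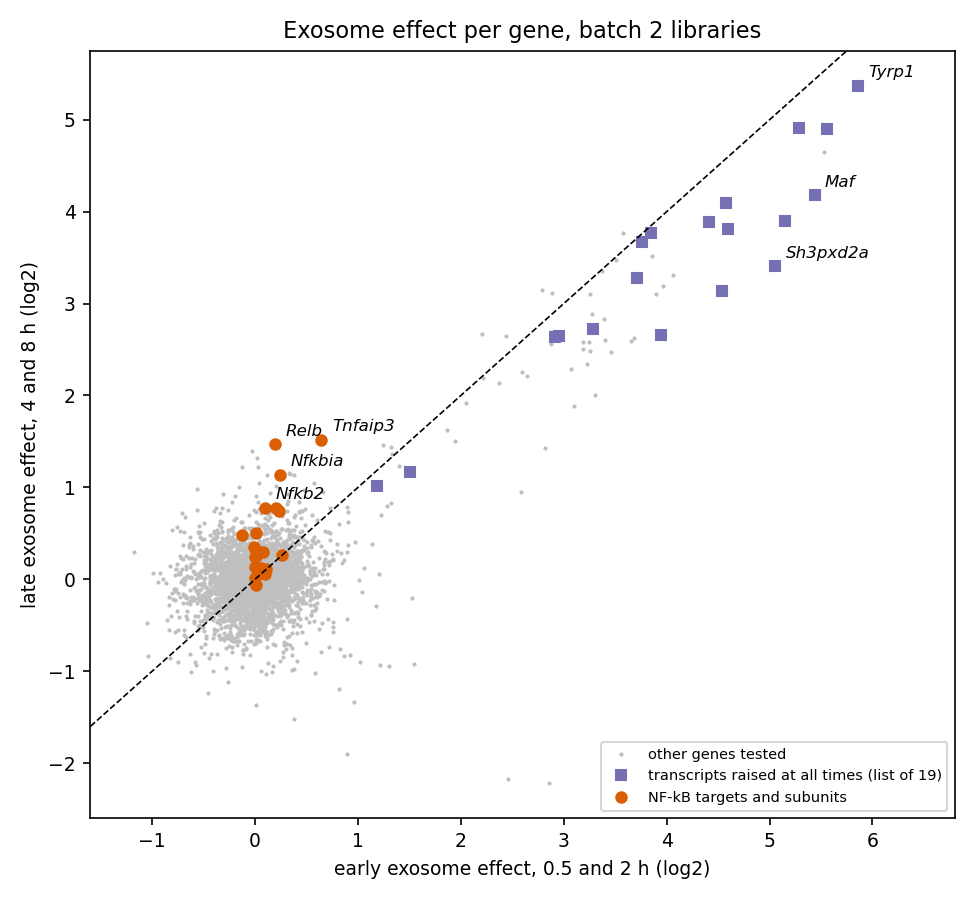
Late exosome effect (vertical axis, log2) against early exosome effect (horizontal axis, log2), 1 point per gene tested in batch 2, with NF-kB targets and subunits as orange circles, 19 transcripts raised at all times as violet squares, other genes in grey and equal effects on the dashed line. Relb and Nfkbia lie above the line near an early effect of 0, and the 19 raised transcripts lie below it.

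Transcripts scarce in untreated cells made up most of the early and of the late calls. When the test kept genes that averaged at least 10 normalized counts without exosomes, 7 genes were called early and 19 late, and the late minus early effect kept its 3 genes. A list of 19 transcripts raised at all times, chosen on these samples, had a median effect of 4.42 early and 3.67 late, or 3.85 and 3.45 with genes at 0 in all untreated libraries set to their bound. Its median late minus early effect was -0.49, with 0 of 19 called, 3 below 0 at an unadjusted p below 0.05 and 19 below 0 in all. Over all genes tested 1.03% were below 0 at that p and 52.1% in all. In batch 1 the list was also raised late (median 3.21), but its median late minus early effect was 0.10, with 11 of 19 above 0. Within batch 2 treated cells, where the near-zero untreated values do not enter, the median change from early to late was -0.27, with 18 of 19 below 0. There 2 were called, Cmtm4 and Wsb2, where 7.47% of all genes tested were called lower. Tyrp1, a melanin synthesis enzyme gene, had 0 reads in all 8 untreated libraries, 76.3 and 64.0 normalized counts with exosomes at 0.5 h, 41.4 and 52.7 at 2 h, 37.7 and 36.0 at 4 h, and 48.7 and 40.3 at 8 h. It was highest at 0.5 h. Against a floor of 3 reads per library it was at least 22.6-fold higher with exosomes early and at least 15.3-fold higher late, and its late minus early effect of -0.49 ± 0.37 was not called. The Wnt receptor gene Ryk (-0.66 ± 0.59), the transcription factor gene Maf (-1.26 ± 0.71) and the melanin enzyme gene Dct (-0.29 ± 0.48) were not called either.

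The scaffold protein gene Sh3pxd2a had the lowest value on that list, -1.65 ± 0.50 (limma adjusted p = 1.00), with 81.2 and 72.9 normalized counts at 0.5 h, 41.4 and 45.2 at 2 h, 36.8 and 40.5 at 4 h, and 42.3 and 35.8 at 8 h with exosomes. Its untreated libraries held 0 to 2.01 early and 0.892 to 6.03 late, so part of this value comes from 1 to 7 reads. Of the 2 well-expressed members, the membrane protein gene Cmtm4 had 1353 and 1194 normalized counts at 0.5 h, 854 and 935 at 2 h, 841 and 954 at 4 h and 953 and 808.5 at 8 h with exosomes, against 359 to 426 untreated (-0.34 ± 0.11, limma adjusted p = 1.00). The ubiquitin ligase adaptor gene Wsb2 was at -0.17 ± 0.09. Summed over the 17 members near 0 in untreated cells, treated libraries held 593 ± 206 normalized counts early (SD, n = 4; 344 to 764) and 435.5 ± 55.9 late (388 to 516), and untreated ones 2.68 to 50.8. The highest untreated sum was in untreated 4 h replicate 1. The part of these transcripts in the NF-kB difference was not tested.

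**Figure D4:**
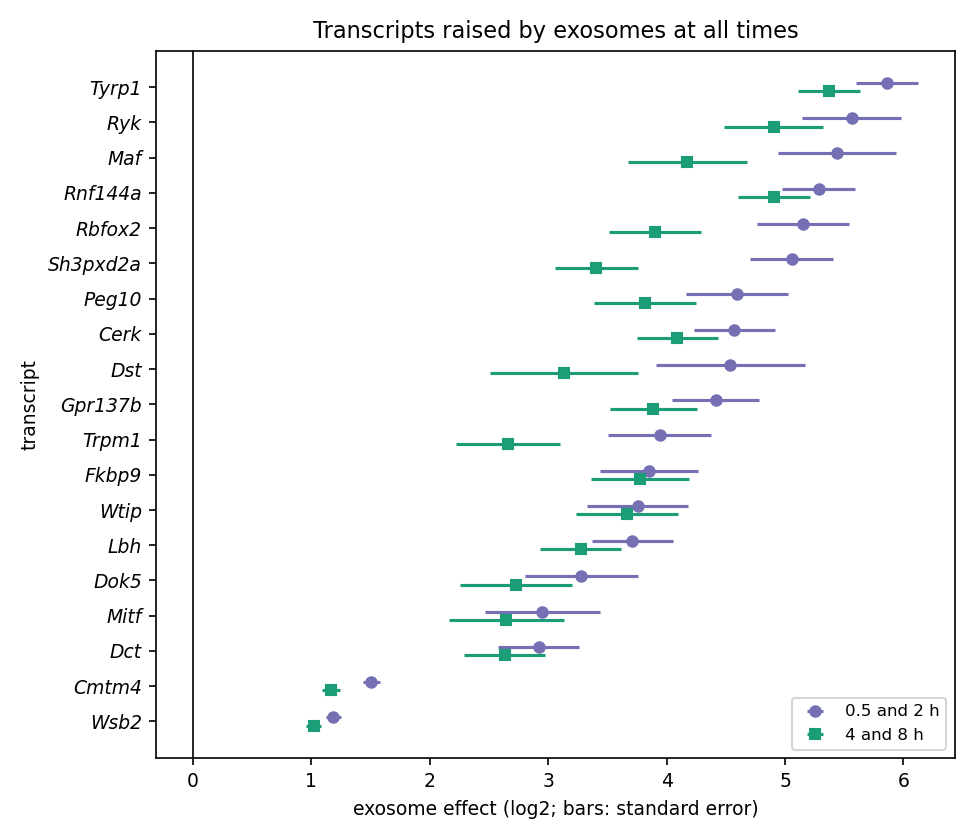
Exosome effect (horizontal axis, log2, bars for standard errors) of the 19 transcripts raised at all times, with the early effect (0.5 and 2 h) as circles and the late effect (4 and 8 h) as squares. In these batch 2 libraries early points lie to the right of late ones in all 19. The median of the list was 4.42 early and 3.67 late.

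In the remaining lists 0 members were called. The median over all genes tested was -0.01. The cytotoxic effector list had a median of -0.06 over 18 genes, T cell identity -0.04 over 24, IL-2 and STAT5 -0.01 over 17, inhibitory receptors -0.01 over 7, immediate early genes 0.07 over 21, interferon-stimulated genes 0.03 over 22, and oxidative phosphorylation -0.06 over 54. Gzmb, a granzyme gene, was at -0.15 ± 0.08. It stood at 38890 to 40530 normalized counts in early and 33080 to 37570 in late treated libraries, against 34860 to 39920 in untreated ones. Ifng, the cytokine gene of T-cell effector function, was at -0.16 ± 0.25, Myc at 0.08 ± 0.08, the IL-2 receptor gene Il2ra at 0.03 ± 0.09, the IL-12 receptor gene Il12rb2 at 0.03 ± 0.14 and the phosphatase gene Ptpn11 at 0.02 ± 0.07 (limma adjusted p = 1.00 each). Like Nfkbiz, both Phlda1 and Atf3 had values above 0 below the threshold while the untreated arm fell: Phlda1, a growth factor response gene, at 0.44 ± 0.14, and the stress transcription factor gene Atf3, at 0.53 ± 0.20, fell with time in untreated cells (-0.52 and -0.54, limma adjusted p = 0.00292 and 0.0164) and stood at -0.09 and -0.01 in treated ones. Replication-dependent histones had a median of -0.23 with 0 of 20 called, the melanocyte list one of -0.19 with 0 of 9 called, B cell markers -0.10 over 2 genes, and erythroid and fat cell markers -0.67 over 1. The medians of the lists not given here lay between -0.08 and 0.05.

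Values below 0 are given for the 12 genes with the smallest unadjusted p, without predicted genes, so they are not the lowest of all genes tested, which reached -5.07. Lars2, a mitochondrial leucyl-tRNA synthetase gene, was at -1.92 ± 0.58 and the microRNA gene Mir6236 at -2.01 ± 0.51 (limma adjusted p = 1.00 each). Lars2 ranged from 1693 to 2822 normalized counts in untreated and from 2769 to 11210 in treated early libraries, and from 2456 to 10070 in untreated and 2226 to 6451 in treated late ones. The highest early treated and highest late untreated values were both in libraries with muscle transcripts. Without the 4 libraries with muscle transcripts 7 genes passed, 5 higher and 2 lower: the 3 called with all libraries, Ikbke and Mreg (0.38, limma adjusted p = 0.0257) higher, and Lars2 (-1.54, limma adjusted p = 0.016) and the predicted gene Gm23935 (-1.75, 0.0025) lower. Mreg and Gm23935 were chosen after their values were seen. The others among the 12 lowest by p were Ifitm10 (-1.17), Zfp993 (-0.99), Acsm3 (-0.94), Plcxd2 (-0.25), Metrnl (-0.22) and Mtch2 (-0.18), besides Jchain, Tph1, Sh3pxd2a and Cmtm4. Skeletal muscle markers had a median of -0.26 with 0 of 17 called. Their summed level was 1647 to 2734 normalized counts in early untreated, 1640 to 4554 in early treated, 1491 to 3255 in late untreated and 1334 to 5491 in late treated libraries, and Acta1 was at -0.26 ± 2.45. Nfkbia, Relb and Nfkb2 were at 0.95, 1.36 and 0.68 without those 4 libraries.

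In batch 1 the same contrast gave no rise of the 3 genes. Nfkbia stood at 288, 330.0, 412 and 397 normalized counts at 0.5, 2, 4 and 8 h without exosomes and at 349, 329, 369.9 and 304 with them, a late minus early effect of -0.40. At 4 and 8 h the single treated library of batch 1 was below its untreated partner, where batch 2 held 876 to 985. Relb was at 173, 200.1, 199 and 242 untreated and 197, 220.1, 181 and 185 treated (-0.42). Nfkb2 was at 912, 879, 1055 and 959 untreated and 1056, 907, 1091 and 1148 treated (0.02). Batch 1 has 1 library per treatment and time and gives no test of its own. Its exosome 0.5 h library held 6072984 recovered reads, the fewest of the batch 1 libraries at these times, with 39.9% of genes at 0. Of the 207 batch 2 genes above 0 at an unadjusted p below 0.05, 94 were above 0 in batch 1 (45.4%), against 51.5% of all genes tested, and of the 149 below 0, 74 were below 0 there (49.7%), against 48.5% of all genes tested.

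The difference between batches was tested in a limma fit of all 24 libraries with 1 mean per treatment, time and batch, in which the lone batch 1 libraries are assumed to vary like those of batch 2. Of 14994 genes, 2 were called (0.0133%), with 1512 at an unadjusted p below 0.05. They were Nfkbia, higher in batch 2 by 1.30 ± 0.14 (limma adjusted p = 0.00313), and Relb, by 1.69 ± 0.21 (0.0102). Nfkb2 differed by 0.65 ± 0.13 and was not called (limma adjusted p = 0.361). In the late effect alone the batches differed for Nfkbia, Relb and Nfkb2, by 1.41 ± 0.10, 1.73 ± 0.15 and 0.62 ± 0.09 (limma adjusted p = 1.3e-05, 0.000106 and 0.0293). A model of all 28 libraries with a batch term, which averages the batches, called 0 genes (Nfkbia 0.46, Relb 0.71, Nfkb2 0.46, limma adjusted p = 0.983 each). What differed between the batches is not given in the sources used here.

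**Figure D5:**
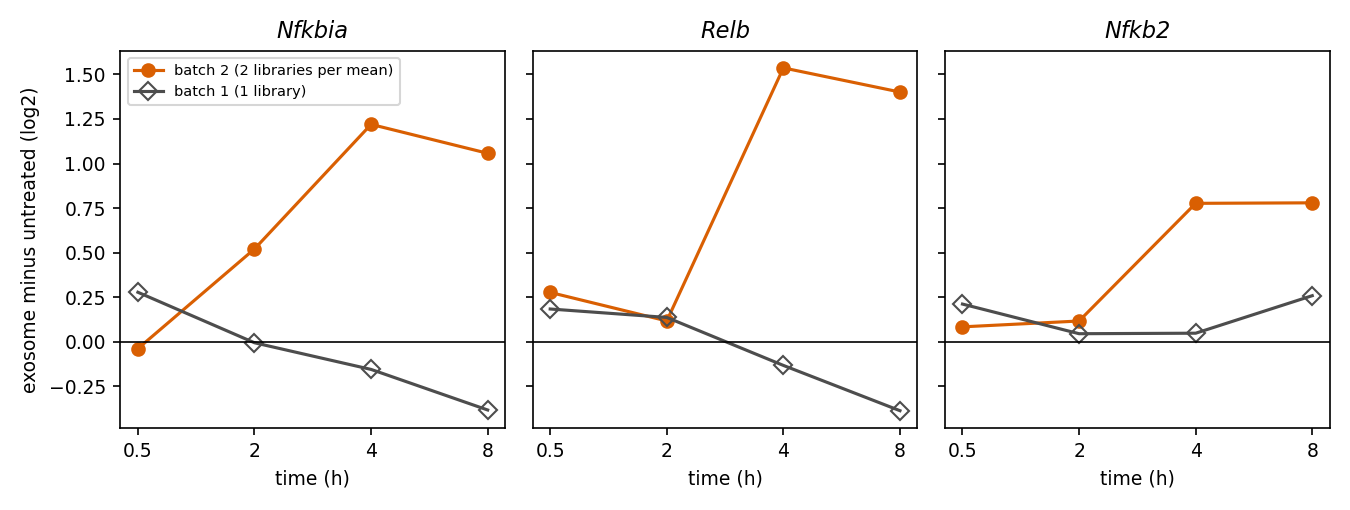
Exosome minus untreated difference (vertical axis, log2) of Nfkbia, Relb and Nfkb2 against time in h, in batch 2 (filled circles, 2 libraries per mean) and batch 1 (open diamonds, 1 library each). The batch 2 lines rise to 1.22, 1.54 and 0.78 at 4 h, and the batch 1 values there are -0.15, -0.13 and 0.05.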

How the data were processed

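Per the labels' protocols, RNA of CTLL2 cells was extracted with TRIzol, kept if its integrity number was above 8, and sequenced as paired reads from TruSeq libraries. Tools listed in the submitters' processing notes are STAR 2.4.2, featureCounts 1.5.0, CASAVA 1.8.4, DESeq2 and R 3.3.2, with the build GRCm38.p2 and no settings. The deposited table holds a normalized signal, in which each library's counts were divided by a single size factor by the authors. Values are multiples of what 1 read is worth in a library, and 100% came out whole to 0.01 read. Depth was 13399840 to 21120943 recovered reads per library in the 16 libraries of the main test. In the batch 1 libraries at the same times it was 6072984 to 24085812. In the 16 libraries 3 reads, the floor for a gene at 0, are worth 2.10 to 3.37 normalized counts, and in the shallowest batch 1 library 7.47. This floor covers counting error only.

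Groups came from the titles and batches from the descriptions. The main test was limma 3.58.1 (R 4.3.3) with a mean-variance trend on log2(normalized count + 1), which understates changes of low genes. It was fitted to the 16 libraries with 8 means (treatment by time, 8 residual degrees of freedom) for 14453 of 30608 genes, those reaching 10 normalized counts in 2 libraries. Benjamini-Hochberg adjustment ran over these 14453 genes, with calls at adjusted p below 0.05. Errors are limma's standard errors for log2 values and SD for normalized counts. The series design calls replicates biological. How cultures were kept apart is not given in the sources used here.

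edgeR 4.0.16 and DESeq2 1.42.0 were run on recovered reads as alternatives, along with other pseudocounts (0.5, 5), filters, scalings, models and leaving out each library. On simulated reads of the late minus early effect, limma recovered 68% of 1.5-fold, 96% of 2-fold and 100% of 4-fold changes, with 5 false calls among 14021 unchanged genes (14221 genes tested, changed genes at a level of 50 or more). The simulation changed 50 genes at each fold and gave every library the same spread, so recovery in the data can be lower.

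Named genes were the called genes, filled to 12 in each direction by the smallest unadjusted p, up to 4 called genes in each other contrast, leading members of each list, and 16 genes whatever their values, leaving out predicted genes, RIKEN clones and pseudogenes. Mreg, Gm23935, 9530080O11Rik, and the NF-kB list members beyond its leading ones, such as Tnf and Nfkb1, were named outside this rule, after their values were seen. Symbols and positions came from GENCODE M21 on GRCm38 (30403 identifiers found), and promoters from RefSeq on GRCm38.p6. The comparison and the gene lists were chosen with earlier results of these data known. The 4 libraries at 0 h were left out because they have no exosome-treated partner.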

Additional observations from a re-analysis of the deposited data

Results flagged for a closer look

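The exosome effect differed between the late and the early times, by limma's test of the difference itself, for Nfkbia (0.90), Relb (1.27) and Nfkb2 (0.68), all higher late. With the times pooled into 4 means Nfkbia was not called (limma adjusted p = 0.774). In the same contrast the effect differed between batches for Nfkbia, by 1.30, and for Relb, by 1.69, both higher in batch 2, in a fit that takes the lone batch 1 libraries to vary like those of batch 2.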

How the results depend on the processing

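Of 36 alternatives, 33 gave a late minus early count within 1.5 times of 3. DESeq2 called 5 genes, a model of all 28 libraries with a batch term 0, and the fit without the 4 libraries with muscle transcripts 7. Among the 33, the fit with no filter on low values also called the RIKEN clone 9530080O11Rik, lower late (-3.01, limma adjusted p = 0.0105). Leaving out 1 library gave 3 to 4 genes, with all 3 shared each time. Pooling the times into 4 means left 2, without Nfkbia (adjusted p = 0.774), and so did 2 h as the only early time. The early count of 60 became 7, and the late count of 78 became 19, when genes had to average 10 normalized counts without exosomes. Without 1 library the early count ran from 46 to 64 and the late count from 43 to 70 (47 without untreated 4 h replicate 3, 43 and 46 without exosome 8 h replicates 2 and 3). The 2 genes of the batch difference became 1 without the trend. A fit with the replicate number as a block called 3 genes late minus early, 51 early and 59 late. Deviations of same-numbered treated and untreated libraries from their group means correlated at 0.0484 at 0.5 h, -0.00905 at 2 h, 0.207 at 4 h and -0.205 at 8 h. With 2 libraries per group each time gives 1 such value, so whether the numbers pair the samples cannot be told from them. Of 3748 recomputed values of 105 genes, 3737 stayed on their side of the threshold and 0 called values changed sign. The median of all genes was -0.005 as deposited, -0.0005 after quantile normalization and -0.006 after centring. The muscle-library, split-time and batch-difference alternatives were chosen after seeing the data. Depth limits transcripts at a few reads: a gene at 0 can hold up to 3 reads per library. With 2 libraries per treatment and time, 68% of simulated 1.5-fold changes were recovered, so changes of this size and smaller can be missed. The simulation changed 50 genes at each fold, where the data gave 3 calls, and more calls ease the adjusted threshold. It also gave all libraries the same spread. In the data, the chi-square per degree of freedom between the 2 libraries of a group ran from 1.32 to 28.5. Recovery in the data can therefore be lower than these shares. The cause of each change in a call was not tested.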
